A study of Mus musculus with 24 samples.

Results

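Prm1, Prm2, Tnp1, Tnp2, Spata3, Odf1 and Smcp are 7 sperm genes whose counts were examined in mouse adipose libraries. They were chosen by name from earlier results of the same libraries, in which genes of the male germ line stood out, and they make up 7 of the 54232 genes in the count table. All 7 passed the filter of more than 10 counts over the 24 libraries, as did 26116 genes in all. Because measured values led to the choice, the levels and differences of the 7 genes are given as a description, and their p-values support nothing.

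RNA was taken from adipose tissue of C57BL6 mice, 10 weeks old per the series text, with 6 mice in each of 4 groups. The Control group had a sham operation and received a lentivirus for GFP, and the NaKtide group had the sham operation and a lentivirus for NaKtide, a peptide derived from the Na,K-ATPase that was designed to block its signaling through Src. The PNx group had a 5/6 nephrectomy, in which the right kidney was removed and part of the left kidney was ligated, with the GFP virus, and the PNx+NaKtide group had the same operation with the NaKtide virus. All 24 mice received 100 µL of virus into the peritoneum, the adiponectin promoter drove the transgene in each vector, the methods name male mice and visceral fat, and they give no pooling of animals. The comparisons ask whether renal failure and adipocyte expression of NaKtide change the transcriptome of the fat.

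In haploid spermatids, the histones of the nucleus are replaced first by transition proteins and then by protamines, small basic proteins that pack DNA tightly in the sperm head. Tnp1 and Tnp2 encode the transition proteins, and Prm1 and Prm2 encode the protamines. Odf1 encodes a protein of the outer dense fibers of the sperm tail, Smcp a cysteine-rich protein of the mitochondrial capsule of the sperm midpiece, and Spata3 a testis-expressed protein named for spermatogenesis. These genes are known as markers of late spermatids and not of fat. The common label of sperm chromatin therefore covers only Prm1, Prm2, Tnp1 and Tnp2, while Odf1 and Smcp belong to the tail and midpiece.

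The coding sequences of the 4 chromatin genes are shown because arginine took a larger share of their codons than in the other members. They were read from the GENCODE M21 transcripts (GRCm38) 5′ to 3′, whole for Prm1 and Tnp1 and as the last 60 codons with the stop for the longer Prm2 and Tnp2, and the arginine codons are in capitals.
Prm1: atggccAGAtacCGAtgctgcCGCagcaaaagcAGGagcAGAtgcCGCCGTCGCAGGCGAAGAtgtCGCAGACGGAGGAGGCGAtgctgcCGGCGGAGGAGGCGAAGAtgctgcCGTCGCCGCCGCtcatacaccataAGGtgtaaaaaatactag
Prm2: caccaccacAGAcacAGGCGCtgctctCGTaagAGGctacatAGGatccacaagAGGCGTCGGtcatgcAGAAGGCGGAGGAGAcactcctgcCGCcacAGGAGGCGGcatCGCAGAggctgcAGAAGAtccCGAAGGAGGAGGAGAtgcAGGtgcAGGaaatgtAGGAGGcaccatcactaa
Tnp1: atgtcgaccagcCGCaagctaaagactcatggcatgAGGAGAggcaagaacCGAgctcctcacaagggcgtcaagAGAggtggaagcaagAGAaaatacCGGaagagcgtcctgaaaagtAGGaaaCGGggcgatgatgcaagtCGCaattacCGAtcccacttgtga
Tnp2: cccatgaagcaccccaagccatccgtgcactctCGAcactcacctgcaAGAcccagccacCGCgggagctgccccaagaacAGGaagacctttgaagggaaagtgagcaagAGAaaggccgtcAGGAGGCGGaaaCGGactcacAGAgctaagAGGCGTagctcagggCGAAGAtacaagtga

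Arginine took 28 of the 51 codons before the stop in Prm1 (54.9%), and in its longest stretch 6 arginine codons followed each other. In Prm2 it took 38 of 107 codons (35.5%), in Tnp1 11 of 55 (20%) and in Tnp2 16 of 117 (13.7%). The printed last 60 codons held 31 of the 38 arginine codons of Prm2 and 14 of the 16 of Tnp2, toward the end of both genes. Tnp1 held nearly as many lysine codons as arginine codons (10 against 11) and no cysteine codon. Across 21562 protein-coding genes, the members among them, with the longest coding sequence of each, the median share of arginine codons was 5.36%. Of these genes, 1 (0.00464%) had a share as high as that of Prm1. The corresponding shares of genes were 0.00928% for Prm2 (2 genes), 0.0835% for Tnp1 and 0.784% for Tnp2. Arginine took a smaller share in the other 3 members, although Spata3 came near Tnp2. Spata3 (333 codons) had 10.2% arginine, and 3.78% of the genes had a share as high. Odf1 (248 codons) had 7.66% arginine and 16.5% cysteine, and Smcp (143 codons) had no arginine codon and 22.4% cysteine.

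**Figure D1:**
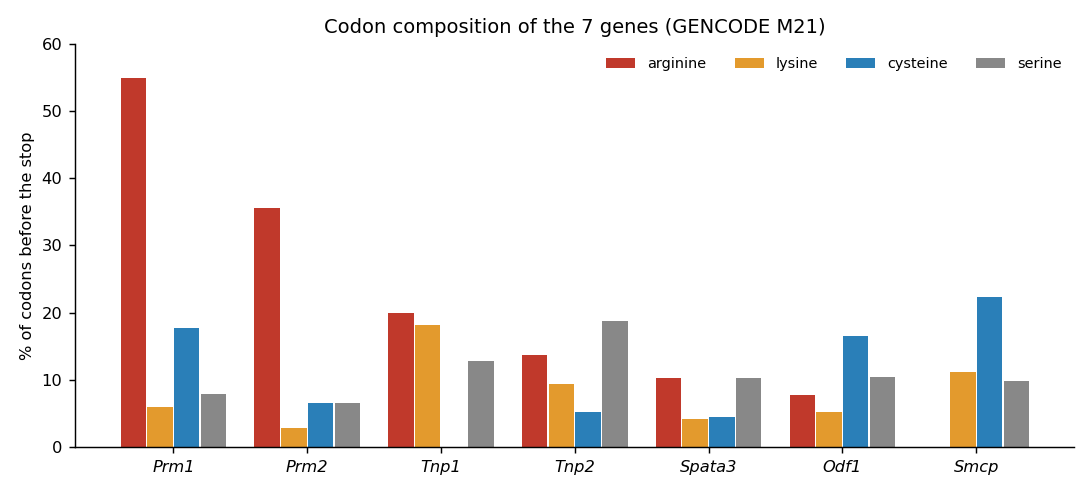
Share of codons before the stop (percent, bars from 0) that encode arginine, lysine, cysteine and serine in 1 transcript of each of the 7 genes. Arginine falls from 54.9% in Prm1 to 13.7% in Tnp2 among the chromatin genes, whereas Smcp has none and is led by cysteine at 22.4%.

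Prm1 (ENSMUSG00000022501, chr16:10796326-10805839), Prm2 (ENSMUSG00000038015, chr16:10791380-10796134) and Tnp2 (ENSMUSG00000043050, chr16:10787936-10788660) are neighbors on the minus strand of chromosome 16 in GRCm38. Tnp1 (ENSMUSG00000026182, chr1:73015074-73015909, minus strand) and Spata3 (ENSMUSG00000026226, chr1:86016816-86029958, plus strand) lie on chromosome 1. Odf1 (ENSMUSG00000061923) lies at chr15:38219203-38226735 on the plus strand and Smcp (ENSMUSG00000074435) at chr3:92583867-92588997 on the minus strand. Only Tnp1 shared exon bases with a gene of the opposite strand, 40 bases with 1700027A15Rik.

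Sequence before the start site is shown for members that moved together across the libraries, as given with their levels. RefSeq windows of 300 bases (250 before and 50 after the start, GRCm38.p6) were found for 6 of the 7 genes by symbol, and matches to the searched motifs are in capitals in the lines that follow. For Prm2, Tnp1 and Tnp2 the lines run from 110 to 11 bases before the start. For Prm1 only the match with 8 bases on each side is given. All of the match but its first base, and the bases printed after it, lie in untranslated sequence of the first exon of an annotated Prm1 transcript.
Prm1, chr16:10796872-10796895, minus strand: gtcctcttTGACTTCAtaattcct
Prm2, chr16:10792116-10792215, minus strand: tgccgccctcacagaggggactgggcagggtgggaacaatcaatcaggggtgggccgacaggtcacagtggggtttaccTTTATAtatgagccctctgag
Tnp1, chr1:73015910-73016009, minus strand: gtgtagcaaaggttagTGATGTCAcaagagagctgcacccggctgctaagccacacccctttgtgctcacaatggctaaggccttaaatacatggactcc
Tnp2, chr16:10788666-10788765, minus strand: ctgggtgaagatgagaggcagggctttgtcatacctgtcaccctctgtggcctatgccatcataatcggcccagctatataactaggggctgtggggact

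The motifs were fixed as TGACGTCA, TGACG and TATAAA and were searched on both strands of the whole windows. The cAMP response element TGACGTCA was found in 0 of the 6 windows and in 1.79% of 32817 RefSeq windows. Its TGACG part, which overlaps it, was also found in 0 of the 6, against 20.8% of all windows. The TATA motif TATAAA was found in Prm2 only, on the opposite strand and 31 bases before the start, against 13.6% of all windows. A pair of variants of the response element that differ from it by 1 base were added after the windows had been seen. TGATGTCA was present in Tnp1, 94 bases before the start, and in Smcp (3.62% of all windows), and TGACTTCA was present in Prm1, 64 bases before the start (1.52% of all windows). A match describes letters in a window and not a bound site.

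Levels are given as CPM, the count of a gene scaled to the total count of its library, from libraries of 679250 to 2979505 counts. PNx replicates 1, 2 and 3 stood apart from the other 21 libraries over the whole transcriptome. On the first principal component of 25994 genes, from which the members and all marker lists were left out, they lay between 224 and 283 and the others between -133 and 93.2, and the component held 43.4% of the variance. The summed adipocyte list (15 genes, including Adipoq, Plin1 and Lep) lay between 102 and 9866 CPM (median 470), with all 15 genes detected in the series, whereas the epididymis list (15 genes, led by Gpx5, Adam7 and Lcn8) lay between 30.9 and 3246 CPM (median 1485). In NaKtide replicate 6 and PNx replicate 6 the adipocyte list was highest (5152 and 9866 CPM) and the epididymis list was low (35.1 and 194 CPM). The libraries were stranded, but the sources used here give no strand setting for the counting. The mitochondrial gene mt-Nd6, the only mRNA of its strand, held 67.6 times as many counts per kb as the 12 mRNAs of the other strand together. Genes whose exons overlap a gene of the opposite strand made up 16.8% of the genes and held 79.9% of all counts. Which strand of RNA gave the counts of the 7 genes and of the marker lists was not tested.

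Prm2 had the most counts of the 7 genes (9457 over the 24 libraries), followed by Spata3 (5879), Tnp2 (3860), Prm1 (3325), Tnp1 (3093), Smcp (1227) and Odf1 (733). Per length, on the deposited FPKM scale, the mean level was 216 for Prm2, 141 for Tnp1, 140 for Tnp2, 116 for Prm1, 54.7 for Spata3, 25.2 for Smcp and 12.5 for Odf1. The 4 chromatin genes thus had the highest mean levels per length, and the means of Tnp1, Tnp2 and Prm1 lay close together beside their spread over libraries. Each of the 7 genes was detected in all 24 libraries, apart from Odf1, which had 0 counts in NaKtide replicate 6 and PNx+NaKtide replicate 6. A count of 0 allowed up to 3 counts, or 1.88 and 2.15 CPM in these libraries, which covers counting error only.

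Prm1 ranged from 8.37 to 88.8 CPM in Control (median 54.0) and from 1.88 to 117 CPM in NaKtide (median 12.6). It ranged from 5.56 to 261 CPM in PNx (median 121) and from 1.99 to 138 CPM in PNx+NaKtide (median 51.6). PNx replicates 1, 2 and 3 were the highest of all libraries, PNx replicates 4 and 5 were at 5.56 and 15.6 CPM, among the lower libraries of the other groups, and the 4 groups overlapped.

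Prm2 lay between 38.7 and 250 CPM in Control (median 166) and between 4.39 and 377 CPM in NaKtide (median 74.0). In PNx it lay between 32.1 and 645 CPM (median 316) and in PNx+NaKtide between 7.89 and 443 CPM (median 146). Its order of libraries was close to that of Prm1, with PNx replicate 3 highest and NaKtide replicate 6 lowest.

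Tnp1 was measured at 9.42 to 103 CPM in Control (median 46.8) and at 0.627 to 91.2 CPM in NaKtide (median 13.0). The PNx libraries held 8.64 to 244 CPM (median 103), and the PNx+NaKtide libraries 3.31 to 140 CPM (median 50.9). Tnp2 was measured at 11.1 to 114 CPM in Control (median 59.3), 1.25 to 118 CPM in NaKtide (median 17.8), 10.5 to 304 CPM in PNx (median 141) and 2.65 to 163 CPM in PNx+NaKtide (median 59.3). Both transition protein genes were highest in PNx replicates 3, 1 and 2, and within every group their values spread over several-fold.

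Odf1 ranged from 2.09 to 17.4 CPM in Control (median 8.80), from 0 to 36.8 CPM in NaKtide (median 1.66), from 1.85 to 81.4 CPM in PNx (median 21.1) and from 0 to 17.2 CPM in PNx+NaKtide (median 5.52). Smcp ranged from 2.62 to 29.4 CPM in Control (median 13.8), from 0.627 to 41.6 CPM in NaKtide (median 3.78), from 3.09 to 149 CPM in PNx (median 29.8) and from 0.718 to 35.4 CPM in PNx+NaKtide (median 10.0). The tail and midpiece genes were again highest in PNx replicates 3 and 1, and NaKtide replicate 3 lay above PNx replicate 2 for both.

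Spata3 behaved differently. It ranged from 145 to 194 CPM in Control (median 164) and from 132 to 240 CPM in PNx+NaKtide (median 157), narrow ranges beside those of the other members. In NaKtide, 5 libraries lay between 146 and 228 CPM and replicate 6 was at 4.39 CPM (7 counts). In PNx, replicates 4 and 5 were at 196 and 204 CPM, while replicates 1, 2, 3 and 6 were at 42.3, 50.7, 85.5 and 9.43 CPM. The libraries in which the other 6 genes were highest thus had less Spata3 than any Control library, and PNx replicate 6 and NaKtide replicate 6, the libraries with the most adipocyte marker counts, had the least. In bulk tissue, fewer cells of a type and less RNA per cell cannot be told apart.

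**Figure D2:**
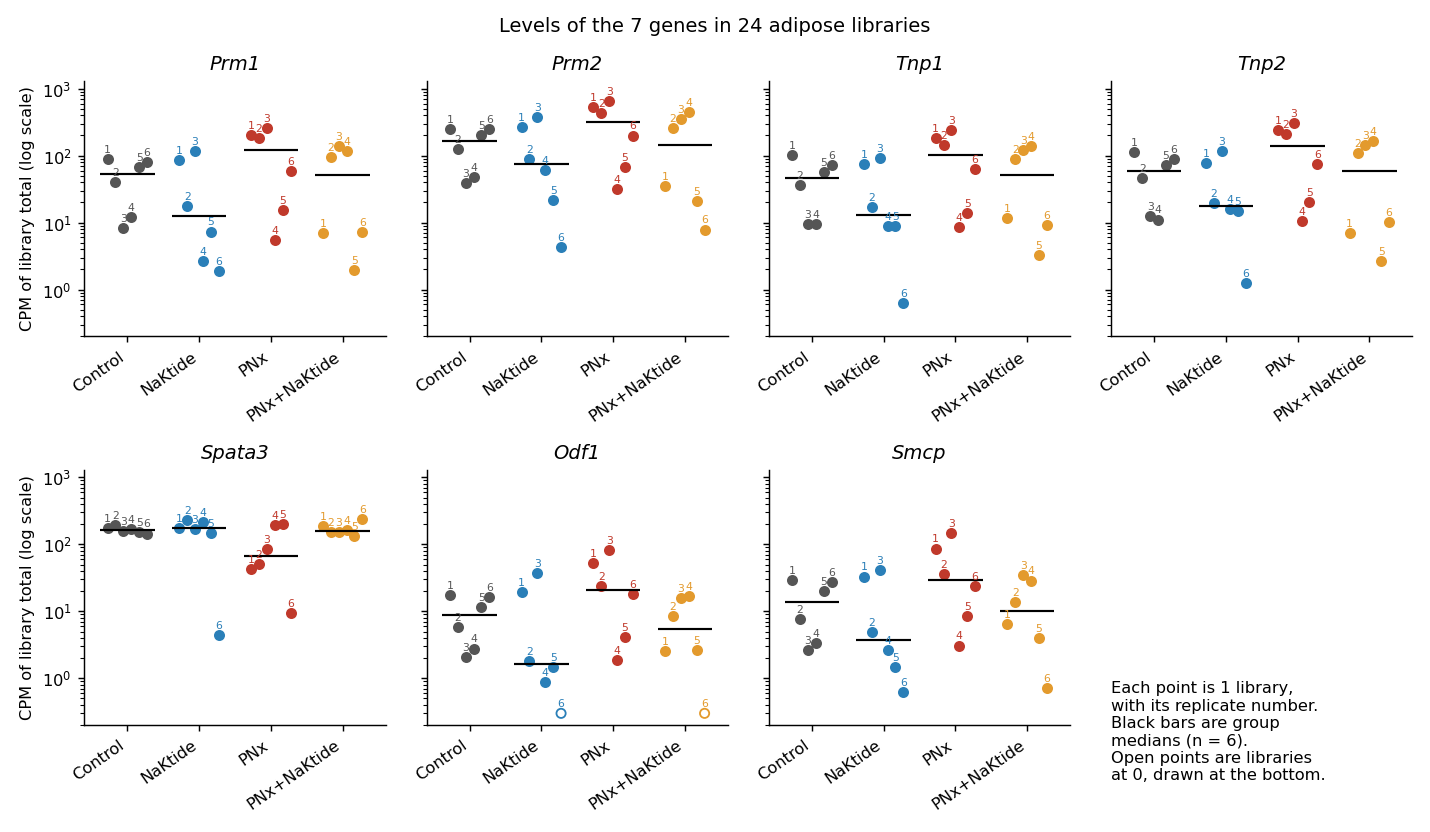
CPM of each of the 7 genes (log axis) in the 24 libraries, by group, with replicate numbers beside the points and black bars at the group medians (n = 6). For Prm1, Prm2, Tnp1, Tnp2, Odf1 and Smcp PNx replicates 3 and 1 are the highest points and the groups overlap, whereas Spata3 stays between 132 and 240 CPM except in PNx replicates 1, 2, 3 and 6 and NaKtide replicate 6.

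The 6 genes other than Spata3 followed each other across libraries. Over their 15 pairs, the Spearman correlation across the 24 libraries lay between 0.87 and 0.98, and across the 21 libraries without PNx replicates 1, 2 and 3 it lay between 0.81 and 0.97. Spata3 correlated with each of the 6 at -0.43 to -0.29, and at -0.26 to -0.06 in the 21 libraries. These values describe libraries that share their groups and their scaling to library totals. Co-variation of this size was common in these libraries, since 14.9% of the 19736 genes with a mean of at least 1 CPM correlated at 0.8 or more with the summed level of the 6 genes. For Spata3 that share was 0.253%.

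Prm1, Tnp1 and Tnp2 also kept a similar proportion to Prm2 in the libraries where Prm2 was well counted. In the 13 libraries with at least 200 Prm2 counts, Prm2 itself varied 5.07-fold in CPM, while Prm1 stood at 26.6 to 42.2% of the Prm2 count (median 33.1%), Tnp1 at 24.2 to 41.4% (median 31.8%) and Tnp2 at 28.5 to 48.1% (median 37.3%). The proportions of Odf1 (3.28 to 12.6%) and Smcp (5.33 to 23.0%) varied more, by 3.85-fold and 4.32-fold. Spata3 went from 4.72% to 152% of the Prm2 count in the same libraries. In the other 11 libraries together, Prm1 stood at 20.9%, Tnp1 at 23.3%, Tnp2 at 28.4%, Odf1 at 4.88%, Smcp at 9.15% and Spata3 at 429% of the Prm2 counts. Prm1, Tnp1 and Tnp2 thus kept a proportion to Prm2 that varied by 1.59-fold to 1.72-fold where it was well counted, and Spata3 did not. Their proportions were lower in the other 11 libraries together than in the 13 together, where they were 36.2% for Prm1, 33.4% for Tnp1 and 41.7% for Tnp2.

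**Figure D3:**
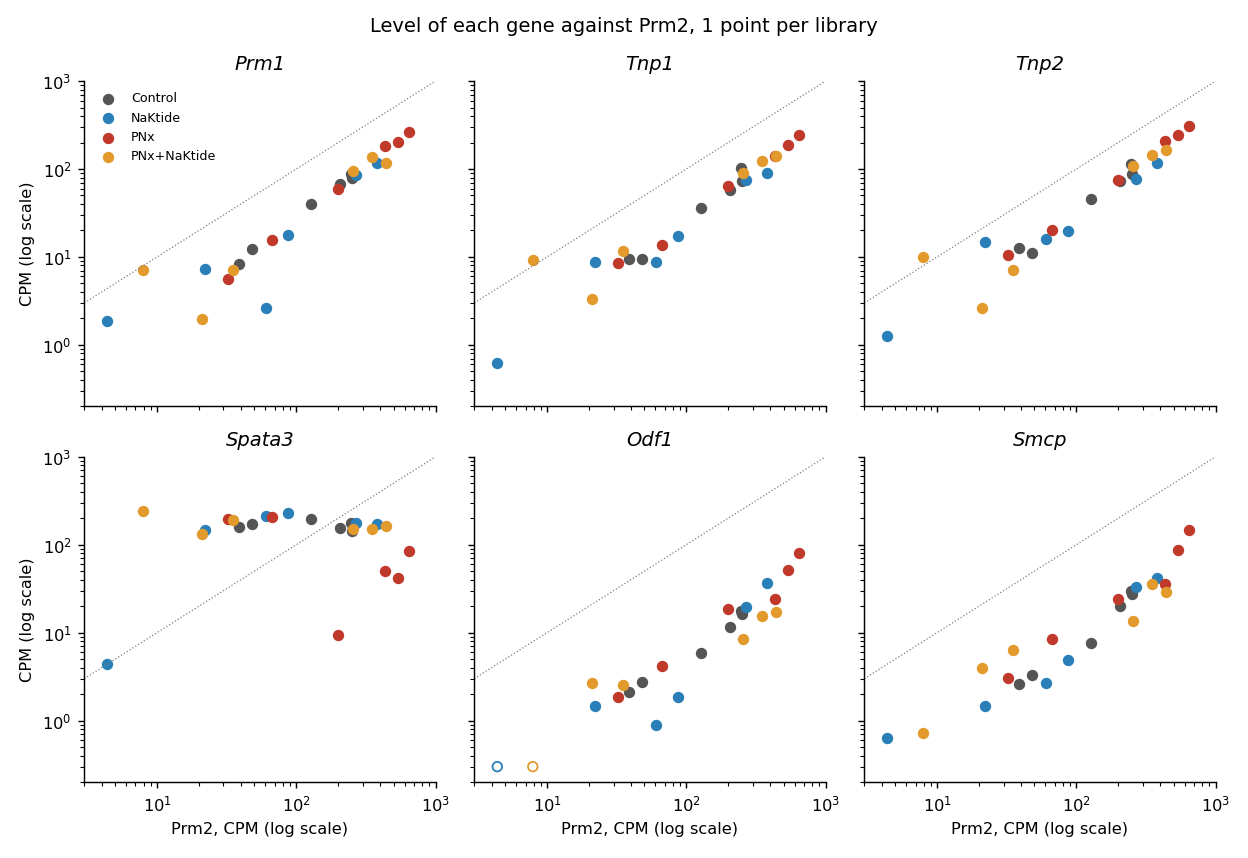
CPM of 6 genes against the CPM of Prm2 (both log axes, dotted line at equal values), with 1 point per library colored by group and open points for libraries at 0. Prm1, Tnp1, Tnp2, Odf1 and Smcp rise along Prm2 in every group, whereas Spata3 is level and drops in 4 PNx libraries and 1 NaKtide library.

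The summed level of the 6 genes was highest in PNx replicate 3 (1685 CPM, or 0.168% of all counts), followed by PNx replicates 1 and 2 (1308 and 1026 CPM). The next libraries were PNx+NaKtide replicates 4 and 3 (910 and 805 CPM), NaKtide replicate 3 (782 CPM) and Control replicate 1 (602 CPM). The other PNx libraries were at 61.7, 129 and 439 CPM (replicates 4, 5 and 6), and the lowest of all was NaKtide replicate 6 at 8.78 CPM. Group means were 332 ± 226 CPM in Control, 275 ± 319 in NaKtide, 775 ± 665 in PNx and 405 ± 407 in PNx+NaKtide (SD, n = 6 each). In all groups but Control the SD was about as large as the mean, and libraries of each group lay among those of the others.

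For PNx against Control, none of the 7 genes passed a BH-adjusted p-value of 0.1 in edgeR, where 0.0766% of the 26116 genes tested did, and none passed an unadjusted p-value of 0.05, where 25.4% of all genes did. The log2 fold changes were 0.89 ± 0.96 (SE) for Prm1, 0.66 ± 0.86 for Prm2, 0.80 ± 0.89 for Tnp1, 0.94 ± 0.90 for Tnp2, 1.26 ± 0.89 for Odf1 and 1.33 ± 0.86 for Smcp. Spata3 had a log2 fold change of -0.83 ± 0.61. The median over the 7 genes was 0.89, beside a median of 0.36 over all genes tested, and their adjusted p-values in edgeR ran from 0.308 to 0.626. The groups overlapped for all 7 genes. Above every Control library lay 3 PNx libraries for Prm1, Prm2, Tnp1, Tnp2 and Smcp, and 4 for Odf1. Below every Control library lay 1 PNx library for Prm1, Prm2, Tnp1, Tnp2 and Odf1, and 0 for Smcp. For Spata3, 4 PNx libraries lay below every Control library and 2 lay above. By the Wald test of DESeq2, whose scaling put the median of all genes at 0.79 and which called 30.1% of 25767 genes with an adjusted p-value, Odf1 (log2 fold change 1.99, adjusted p-value 0.0956) and Smcp (2.07, adjusted p-value 0.0672) passed the same threshold.

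Without PNx replicates 1, 2 and 3, an alternative chosen after the data had been seen, all 7 differences were negative, with a median of -0.96 beside -0.05 over all genes. Prm1 was then at -1.26 ± 1.21, Prm2 at -0.96 ± 1.09 and Smcp at -0.63 ± 0.98. None passed the threshold in that fit, and the direction of the 6 positive differences therefore rested on these 3 libraries.

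For PNx+NaKtide against PNx, 0 of the 7 genes passed the adjusted threshold in edgeR, as did 0% of all genes, and 0 passed the unadjusted p-value of 0.05, against 12.7% of all genes. The log2 fold changes were -0.59 ± 0.96 for Prm1, -0.40 ± 0.86 for Prm2, -0.41 ± 0.89 for Tnp1, -0.61 ± 0.90 for Tnp2, -1.54 ± 0.90 for Odf1, -1.35 ± 0.87 for Smcp and 0.80 ± 0.61 for Spata3. Their median was -0.59, beside -0.37 over all genes. DESeq2 called 5.88% of genes and 0 of the 7 by the adjusted threshold. In DESeq2, 2 of the 7, Odf1 and Smcp, were under an unadjusted p-value of 0.05, as were 5645 of all 25767 genes. Without PNx replicates 1, 2 and 3, all 7 differences were positive, from 0.15 for Spata3 to 1.51 for Prm1, beside a median of -0.01 over all genes, and 0 passed. This comparison and the former share the 6 PNx libraries.

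For NaKtide against Control, 0 of the 7 genes passed in edgeR (0% of all genes by the adjusted and 3.95% by the unadjusted threshold) or in DESeq2 (0.0116% of all genes). The log2 fold changes ran from -0.57 ± 0.90 for Tnp1 to 0.03 ± 0.89 for Odf1, with -0.46 ± 0.96 for Prm1, -0.25 ± 0.86 for Prm2, -0.53 ± 0.90 for Tnp2, -0.16 ± 0.87 for Smcp and -0.01 ± 0.61 for Spata3. For PNx+NaKtide against NaKtide, 0 of the 7 passed in edgeR (0% adjusted, 4.09% unadjusted over all genes) or in DESeq2 (0.00776%). The log2 fold changes ran from -0.30 ± 0.91 for Odf1 to 0.96 ± 0.90 for Tnp1, with 0.76 ± 0.97 for Prm1, 0.51 ± 0.86 for Prm2, 0.87 ± 0.91 for Tnp2, 0.14 ± 0.87 for Smcp and -0.03 ± 0.61 for Spata3. For the 6 co-varying genes these values were no larger than about 1 SE, so no difference was detectable at this depth and spread.

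**Figure D4:**
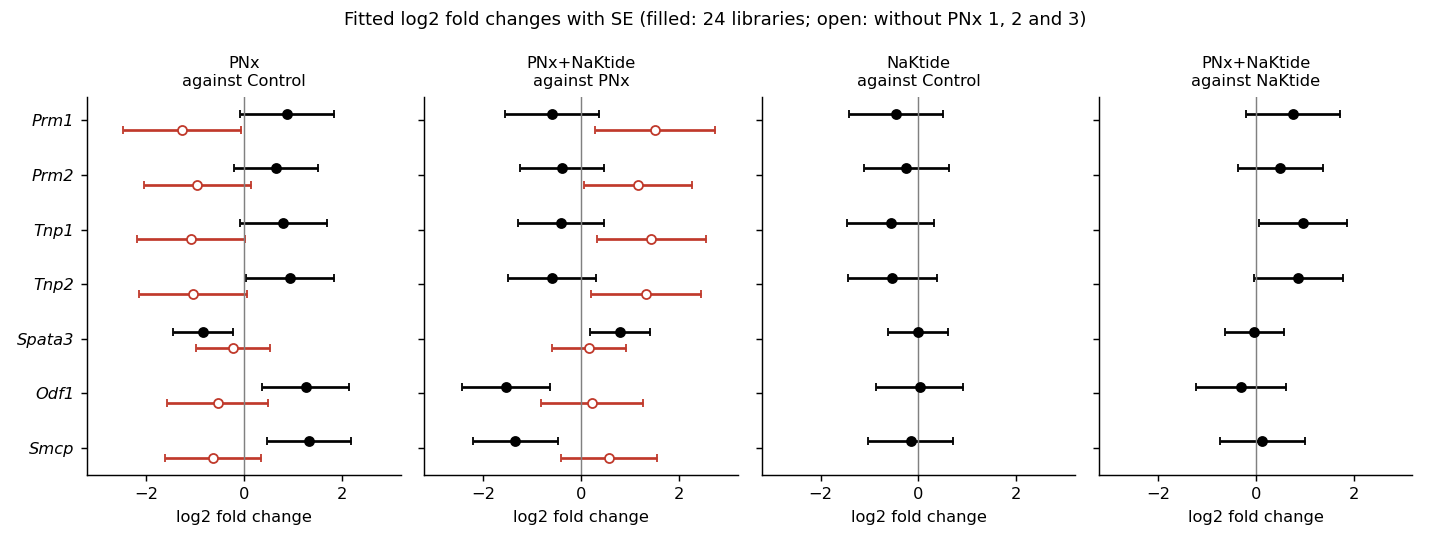
Fitted log2 fold changes (points) with SE (bars) of the 7 genes in the 4 comparisons, filled for all 24 libraries and open, in the first 2 panels, without PNx replicates 1, 2 and 3. The open points lie on the other side of 0 from the filled ones for all genes but Spata3.

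Other genes of spermatids, taken from 4 lists of 56 genes in all (55 tested), were compared with the 7 genes. In PNx against Control, 0 of the 55 passed the adjusted threshold in edgeR, and 25 were higher and 0 lower at an unadjusted p-value of 0.05, beside 18.5% of all genes that were higher by that rule. Their median log2 fold change was 1.83, beside 0.36 over all genes, and 51 of 55 were positive. Lists of other cells also stood away from the median of all genes, with a median of 2.13 for the meiotic genes (14 of 15 positive), 1.64 for the adipocyte genes (15 of 15 positive) and -0.98 for the epididymis genes (0 of 15 positive), and 0 genes of these lists passed the adjusted threshold in edgeR. DESeq2 called 41 of the 55 spermatid genes, all higher, beside 26.6% of all genes called higher. In PNx+NaKtide against PNx, edgeR called 0, with 9 lower and 0 higher at the unadjusted threshold (8.60% of all genes were lower by it) and a median of -1.40, and DESeq2 called 7, all lower (4.82% of all genes). Those 7 were Brdt, Crem, Hist1h2ba, Izumo1, Pgk2, Psme4 and Zpbp. In the other comparisons both tools called 0 of the 55, and at the unadjusted p-value in edgeR 1 gene, Cabyr, was lower for NaKtide against Control and 0 differed for PNx+NaKtide against NaKtide. Without PNx replicates 1, 2 and 3, both medians changed sign. In PNx against Control edgeR then called 0 of 54, the median was -0.87, and 1 gene was lower and 0 higher at the unadjusted threshold. Over all 23673 genes of that fit, 0 were called, and 2625 passed the unadjusted threshold in either direction, 1482 of them higher. In PNx+NaKtide against PNx edgeR called 0 of 54, and the median was 1.41 with 50 of 54 positive. At the unadjusted threshold 6 of these genes were higher and 0 lower, beside 1904 of all 23673 genes that were higher by it. The medians of the adipocyte genes kept their sign without these libraries, at 2.06 and -2.31. These values leaned on PNx replicate 6, where the summed adipocyte list was at 9866 CPM. PNx replicates 4 and 5 were at 211 and 480 CPM, beside 255 to 945 CPM in Control. Over the 6 libraries of each group, the median of that sum was 534 CPM in PNx and 530 CPM in Control.

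By role, the spermatid chromatin list (12 genes, with the linker histone genes H1fnt and Hils1, the chromatin remodeler gene Chd5 and the protamine-like Prm3) was summed at 448 to 885 CPM in PNx replicates 1, 2 and 3 and at 22.1 to 319 CPM in the other 21 libraries. Across the 24 libraries its Spearman correlation with the summed 6 genes was 0.95, and 0.93 across the 21. H1fnt, the most counted of them, reached 283 CPM and was at 0 in at least 1 library, and its log2 fold change in PNx against Control was 1.67 ± 1.14, beside 0.91 ± 1.05 for Prm3 and 2.55 ± 1.29 for Chd5. Tssk6, a kinase gene of late spermatids, was at -0.58 ± 0.34, and 390 of its exon bases overlap genes of the other strand. Chd5, Prm3 and Hils1 correlated with the 6 genes at 0.92, 0.94 and 0.91, and Tssk6 at 0.65.

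The list of spermatid gene control (12 genes of transcription, RNA storage and piRNA, led by the RNA-binding Ybx2 and the transcription factor genes Rfx2 and Tbpl1) was at 332 to 782 CPM in PNx replicates 1, 2 and 3 and at 19.2 to 238 CPM elsewhere. Ybx2, whose product binds protamine mRNA, correlated with the 6 genes at 0.87, and its log2 fold change in PNx against Control was 1.57 ± 0.80. Rfx2 was at 2.35 ± 0.83 (adjusted p-value 0.137 in edgeR) and Tbpl1 at 0.92 ± 0.41. Crem, the transcription factor known to drive protamine and transition protein genes in spermatids, had a mean of 6.62 CPM and correlated with the 6 genes at 0.78, and 472 of its exon bases overlap Gm6225 on the other strand.

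The acrosome list (12 genes, led by Spata16, Pdcl2 and Spaca1) was at 100 to 342 CPM in PNx replicates 1, 2 and 3 and at 1.44 to 67.2 CPM elsewhere, with a correlation of 0.94 with the 6 genes. The log2 fold changes of its leading genes in PNx against Control were 2.28 ± 1.19, 2.71 ± 1.18 and 2.40 ± 1.10. The list of sperm tail and metabolism (20 genes) was at 1525 to 2978 CPM and 306 to 1095 CPM, with a correlation of 0.88. Odf2, a partner of Odf1 in the outer dense fibers, followed the 6 genes (0.96) between 7.36 and 780 CPM, and its log2 fold change in PNx against Control was 1.34 ± 0.96. Gapdhs, the sperm glycolytic enzyme gene, and Oaz3 did not run with them (0.45 and 0.40), and they overlap genes of the other strand by 162 and 2412 exon bases. Such overlap was also present in genes that followed the 6 genes, with 97 exon bases in Odf2 and 101 in Chd5, and in Tbpl1 (407 exon bases, correlation 0.67). Gapdhs was at -0.34 ± 0.25 and Oaz3 at -0.19 ± 0.26 in PNx against Control.

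Lists of the other cell types that male tissue could bring were set beside the 6 genes. The meiotic list (16 genes, led by Sycp3, Rec8 and Mael) had a summed level whose correlation with them was 0.43. That sum was carried by Sycp3 (mean 137 CPM, correlation -0.04), which reached 633 CPM in NaKtide replicate 6, the library lowest in the 6 genes, and 660 of its exon bases overlap Chpt1. Most other meiotic genes ran with the 6 genes, since the median correlation over the single genes of the list was 0.79 and 8 of 16 were at 0.8 or more. Among them were Sycp2 (0.95) and Sycp1 (0.92) of the synaptonemal complex and Mael (0.89), needed for transposon silencing in germ cells. In the 4 spermatid lists the median over single genes lay between 0.82 (chromatin) and 0.90 (tail and metabolism), with 6 of 12 chromatin genes, 7 of 12 genes of gene control, 7 of 12 acrosome genes and 16 of 20 genes of tail and metabolism at 0.8 or more. The summed epididymis list had a correlation of -0.06 across the 24 libraries and 0.28 across the 21 without PNx replicates 1, 2 and 3. It was lowest in PNx replicate 1 (30.9 CPM, with the 6 genes at 1308 CPM), but it was at 1130 CPM in PNx replicate 3 and at 3146 CPM in NaKtide replicate 3, where the 6 genes summed to 1685 and 782 CPM. The Sertoli list (11 genes) was carried by Defb19 (mean 424 CPM), followed by Cst12 and Dhh, and had a correlation of -0.39, while Amh and Fshr of this list averaged 0.218 and 0.0325 CPM. The Leydig list (7 genes) was carried by Star (mean 94.7 CPM, correlation -0.16), followed by Cyp17a1 and Cyp11a1, and its sum had a correlation of 0.03. Cyp11a1, of steroid synthesis, and the Leydig hormone gene Insl3 both correlated with the 6 genes at 0.67, at means of 1.89 and 0.832 CPM, while Lhcgr averaged 0.0654 CPM. The adipocyte list, led by Fabp4, Plin4 and Cfd, had a correlation of 0.07. Within the Sertoli list, Aard (mean 1.74 CPM) and Dhh (mean 11.2 CPM, with 1107 exon bases opposite Gm49442) correlated with the 6 genes at 0.91 and 0.86. Gene by gene, the median correlation was 0.43 for the Leydig list, 0.26 for the Sertoli list, 0.02 for the epididymis list and -0.31 for the adipocyte list. The part of other tissue in the values of the 6 genes was not tested.

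**Figure D5:**
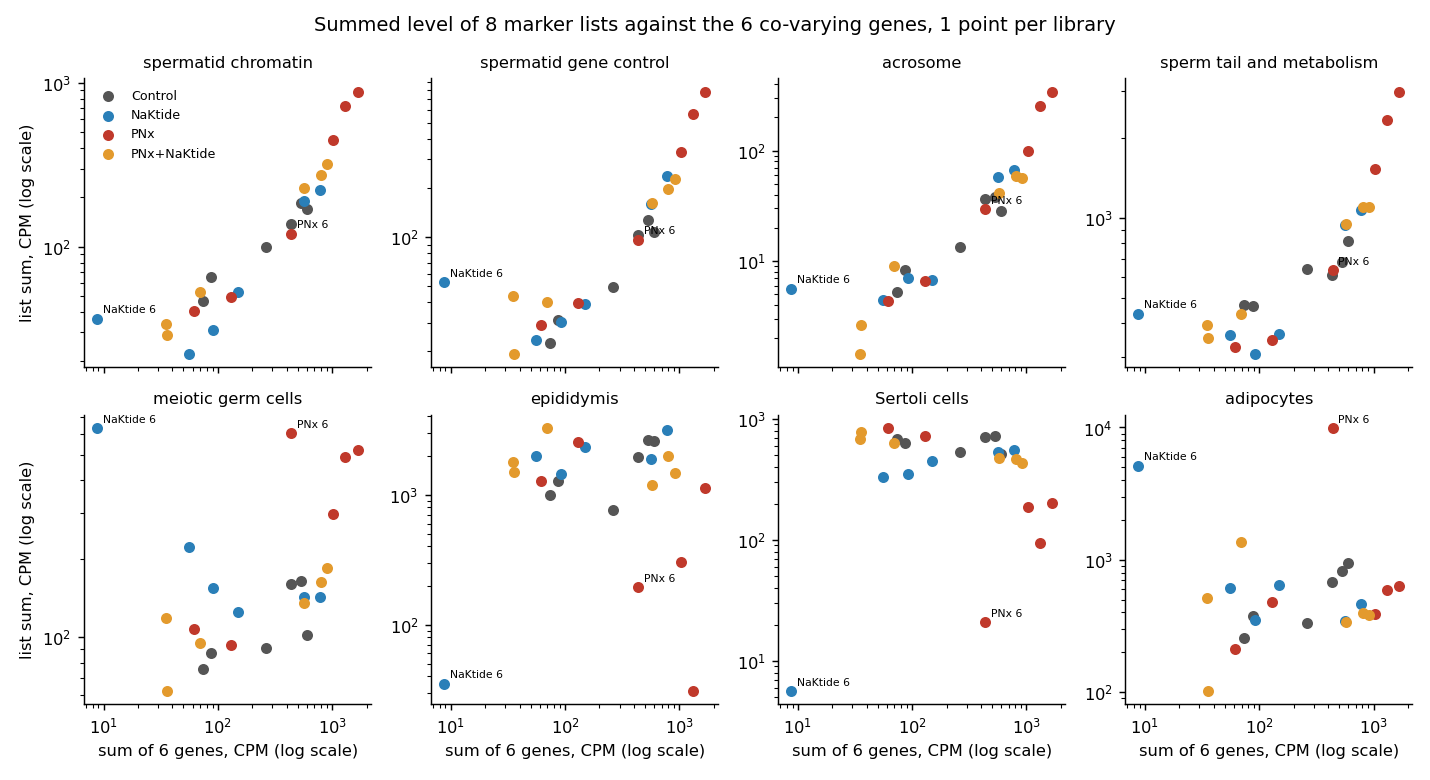
Summed CPM of 8 marker lists against the summed CPM of the 6 genes (both log axes), with 1 point per library colored by group. The 4 spermatid lists rise with the 6 genes and are highest in PNx replicates 1, 2 and 3, whereas the epididymis, Sertoli and adipocyte lists do not, and NaKtide replicate 6 and PNx replicate 6 are at the top of the adipocyte panel.

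The 10 named genes whose CPM was most like the summed CPM of the 7 genes over the 24 libraries, by Spearman correlation, were Txndc2 (0.98), Ccdc60, Cfap57, Erich3, H2al2a, Ovol2, Ccdc96, Zfp451, Atp8b3 and Pmfbp1 (0.96). Txndc2, a thioredoxin gene of spermatids, averaged 141 CPM and ranged from 0 to 847 CPM. H2al2a, a histone variant gene of spermatids, averaged 6.16 CPM, and Ovol2, a zinc finger gene with 359 exon bases opposite 1700108N11Rik, averaged 157 CPM. With Spata3 left out of the sum, a choice made after the data had been seen, 3 of these 10 genes remained among the 10 most alike, and Ccdc136 came first (0.98). The genes most like Spata3 alone were Hopx (0.90), Cox15 and Esrp2 (both 0.88), none of which is a member of the spermatid lists. Across the 24 libraries Spata3 correlated at -0.50 to -0.36 with the sums of the 4 spermatid lists and at -0.63 with the meiotic list. It correlated at 0.50 with the Sertoli list, 0.46 with the epididymis list, 0.27 with the Leydig list and -0.27 with the adipocyte list. The cause of this pattern was not tested. Of the 19736 genes compared, 11014 correlated negatively with Spata3 and 7501 with the 6 genes.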

How the data were processed

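RNA of 24 mice was sequenced in paired reads of 50 bp. Per the methods of the study, the authors trimmed reads with Trimmomatic 0.38, aligned them to GRCm38 with HISAT2 2.1.0 and counted reads per gene with GenomicAlignments. The strand setting is not given in the sources used here. They deposited raw counts, which were used for tests and CPM, and deposited FPKM, used for levels per length. The deposited normalized values were not used, and no column of per-sample values lacked a sample. Groups and replicate numbers came from the sample titles, and the replicates are separate mice per the series text.

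Of 54232 identifiers, 54079 were found in GENCODE M21. Genes with more than 10 counts over the 24 libraries were tested with edgeR 4.0.16 in R 4.3.3 (TMM scaling, 1 fit of 4 group means, robust quasi-likelihood F-test, two-sided, Benjamini-Hochberg adjusted p-value under 0.1). Each SE was derived from the fold change and its F statistic. The common dispersion was 0.509. The authors used DESeq2, which was run in version 1.42.0 as an alternative. The other alternatives were DESeq2 size factors, other filters on low counts, the compared groups alone, replicate numbers as a block, a threshold of 0.05 and each library left out. The scripts were tested on simulated data. Libraries held 679250 to 2979505 counts, so low genes were measured with low precision. Correlations are Spearman coefficients across libraries and have no p-value.

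The members, lists and tests were chosen with earlier results of these data known. Named genes were the members, the 3 most counted genes of each of 9 lists, up to 5 genes of a list that passed the adjusted threshold, the 10 genes most like the summed members (mean of at least 1 CPM, unnamed gene models passed over), mt-Nd6 and genes opposite a member. Other genes named were chosen after their values were seen, which holds for Prm3, Hils1, Crem, Aard, Cabyr, Sycp1, Sycp2, Amh, Fshr, Insl3, Lhcgr, Ccdc136, Hopx, Cox15, Esrp2, Adipoq, Plin1, Lep and the 7 genes called by DESeq2. Coding sequences were taken from the principal transcript. Protein sequences were not used here.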

Additional observations from a re-analysis of the deposited data

Results flagged for a closer look

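Spata3 in NaKtide replicate 6 was far below the other libraries of its group, at 4.39 CPM against 146 to 228 CPM in the other 5. Its gap to the nearest library was 0.632 of the range of the group, above the critical value of Dixon's test at the 95% level. It was the only 1 flagged among 32 groups of values tested (7 genes and their sum, in 4 groups each), and chance flags about 1 in 20 groups. In the same library the epididymis list was at 35.1 CPM and the adipocyte list at 5152 CPM, and their part in the value was not tested.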

How the results depend on the processing

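The count of members called stayed at 0 in edgeR under the other filters, the compared groups alone, the replicate block, the stricter threshold and each library left out (0 to 0), in all 4 comparisons. For PNx against Control it was 1 with DESeq2 size factors and 2 with DESeq2, where 33.3% and 30.1% of all genes were called. For the other spermatid genes, the count called in PNx against Control was 0 in the fit as reported, 40 with DESeq2 size factors, 12 with filterByExpr (17.9% of all genes called) and 41 with DESeq2. With each library left out it ran from 0 to 32, with 32, 21 and 10 called without PNx replicates 4, 5 and 6, where 33.2, 23.2 and 14.8% of all genes were called. In PNx+NaKtide against PNx it was 7 with DESeq2, and the cause of these changes was not tested. Of 868 alternative fold changes of members, 866 stayed within 1 SD between replicates, but the sign was kept under every alternative for only 1, 1, 3 and 4 of the 7 members in PNx against Control, PNx+NaKtide against PNx, NaKtide against Control and PNx+NaKtide against NaKtide. In NaKtide against Control, Odf1 went from 0.03 to -0.88 without NaKtide replicate 3, and Prm2 from -0.25 to 0.01 without NaKtide replicate 6. The 2 that moved further were Smcp without PNx replicates 1, 2 and 3, at -0.63 in PNx against Control and 0.57 in PNx+NaKtide against PNx. With the replicate block, the number of members called and of other spermatid genes called was 0, as without it. Between samples with the same replicate number, the deviations from group means correlated at -0.62 to 0.71. In PNx+NaKtide against PNx, replicates 2, 3, 5 and 6 were at 0.46 to 0.71, and replicates 1 and 4 at -0.62 and -0.54. Samples with different numbers were not compared in this way, so whether the numbers pair the samples was not settled. Under the block the log2 fold changes of Prm1 and Prm2 in PNx against Control were -0.06 and -0.09. Depth limited the values of Odf1 in the 2 libraries at 0 counts. It also limited other low values, since in NaKtide replicate 6 Prm1 had 3 counts, Tnp2 had 2, and Tnp1 and Smcp had 1 each.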
